A study of Saccharomyces cerevisiae with 4 samples.

Results

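The Ecm33-Sps2 family and the glucanases of the cell wall were followed in sporulating budding yeast that was moved to rich medium. They comprised 10 genes, listed by name and matched to the ORF name of each spot, of the 6218 ORFs on the array. The Ecm33-Sps2 family gave 4 of them (SPS2, SPS22, ECM33 and PST1), the exo-glucanases gave 3 (SPR1, EXG1 and EXG2) and the Bgl2 family gave 3 (BGL2, SCW4 and SCW10). SPS2, SPS22 and SPR1 are known as sporulation genes, and the other 7 as genes of vegetative cells. All 10 were found. SPS22, SCW4 and SCW10 carried only their ORF names (YCL048W, YGR279C and YMR305C) in the deposited data and took their symbols from RefSeq.

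The cells were diploid SK1 yeast (strain GF18). Their NDT80 gene, which encodes the activator of middle sporulation genes, was expressed from the promoter of the middle sporulation gene SPS4. They were grown in YPD, then overnight in acetate medium (YPA), and were kept in sporulation medium (SPM) for 5.5 h, after which part of the culture was spun down and resuspended in YPD. The 4 groups, each with 1 array, were cells at 5.5 h in SPM and cells sampled 0, 20 and 40 min after the move to YPD. All 4 samples carried the pSPS4-NDT80 construct. The 3 YPD samples were drawn from 1 culture. The reference on every array was the same RNA of wild-type diploid SK1 cells (NKY1551) grown in YPA, so that a ratio to the reference holds a difference in strain as well as in medium, and these cannot be told apart. A group without the construct was not analysed here. Measured NDT80 was at least 50.8-fold above the reference at 5.5 h in SPM and at least 27.1-fold above it at 40 min in YPD.

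The yeast wall is a net of glucan, chitin and mannoproteins. Ecm33 and its relatives are mannoproteins held at the membrane or wall by a glycolipid anchor, and ECM33 and PST1 are the vegetative pair, PST1 being known as a gene that responds to wall damage. Sps2 and Sps22 are the sporulation pair, with a part in the glucan layer of the spore wall. Exg1 is the main secreted exo-glucanase of growing cells, Exg2 is an anchored exo-glucanase, and Spr1 is the exo-glucanase of sporulating cells. Bgl2 and its relatives Scw4 and Scw10 are glucan-modifying enzymes of the vegetative wall. When spores form, a new wall of mannan, glucan, chitosan and dityrosine layers is laid down around each nucleus inside the mother cell.

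Each value below is a log2 ratio of sample (Cy5) over reference (Cy3), the mean of 2 adjacent spots of the same PCR product, with the SD of these 2 spots as its error. That SD covers noise between spots on 1 array and holds nothing of the variation between cultures, extractions or hybridisations. No group had a replicate array, so no difference between groups could be tested, and a gene was counted as changed only where each of its spots, and their mean, differed at least 2-fold the same way. Over all genes the SD between the 2 spots was 0.193 to 0.267 per array. The reference RNA was the same throughout, and its normalized Cy3 intensity varied between the 4 arrays with a median SD of 0.21 log2 units over the 4053 genes above background there. For the 5 of the 10 genes above background in Cy3 this SD ran from 0.20 for ECM33 to 0.29 for BGL2. The other members were below background in Cy3, where a small SD, such as 0.07 for EXG2, is no measure of precision. A spot was taken as above background when its background-subtracted intensity passed the 95th percentile of the buffer-only spots. A gene was taken as above background in a channel when at least 1 of its 2 spots passed. By this rule 51.9% to 55.8% of genes passed in Cy5 and 69.6% to 75.5% in Cy3. Of the middle sporulation markers, 7 of 7 were at least 2-fold above the reference on every array. Of 7 genes known as haploid-specific, 4 were so at 5.5 h in SPM, beside 21.7% of all genes. By 40 min in YPD 4 fell at least 2-fold (STE3, MFA1, STE4 and STE18), beside 19.8% of all genes. STE3 was below background in Cy5 at 40 min, so the size of its fall was not fully measured. STE2, MFA1 and MFA2 were below background in Cy5 on every array. Their part in the results on the wall genes was not tested.

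At 5.5 h in SPM the wall genes were split. SPS2, SPS22 and SPR1 stood among the 27 highest measured ratios of the array (with no Cy3 signal above background, so that ranks are not given). EXG2 measured moderately higher than the reference, with Cy5 only just above background. ECM33, PST1, BGL2 and SCW4 were lower, and EXG1 and SCW10 did not pass 2-fold. In all, 4 of the 10 were higher by at least 2-fold and 4 were lower by as much, where 21.7% of all 6218 genes were higher and 18.1% were lower. On the 3 YPD arrays the same count gave 4 higher and 3 lower at 0 min (21.5% and 19.0% of all genes), 5 higher and 2 lower at 20 min (22.3% and 20.2%), and 4 higher and 2 lower at 40 min (19.7% and 17.7%). The 3 sporulation genes and PST1 and SCW4 kept their side throughout, SCW10 was not counted on any array, and the calls of ECM33, EXG1, EXG2 and BGL2 changed between arrays. At 5.5 h the median log2 ratio of the 10 was -0.26 and that of all genes 0.01. The 7 vegetative genes had a median of -1.59 at 5.5 h (the value of SCW4) and of -0.23 at 40 min (that of ECM33). These medians belong to different genes and do not give a rise of the set. The median of the changes of these 7 genes from 5.5 h to 40 min was 0.17, with 3 higher and 2 lower. It is the value of SCW10, which was below background in both channels on every array, so it does not summarize the set. The 2 lower genes were below background in Cy5 at 40 min. In RNA of whole cultures, fewer cells expressing a gene and less of its RNA per cell cannot be told apart.

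**Figure D1:**
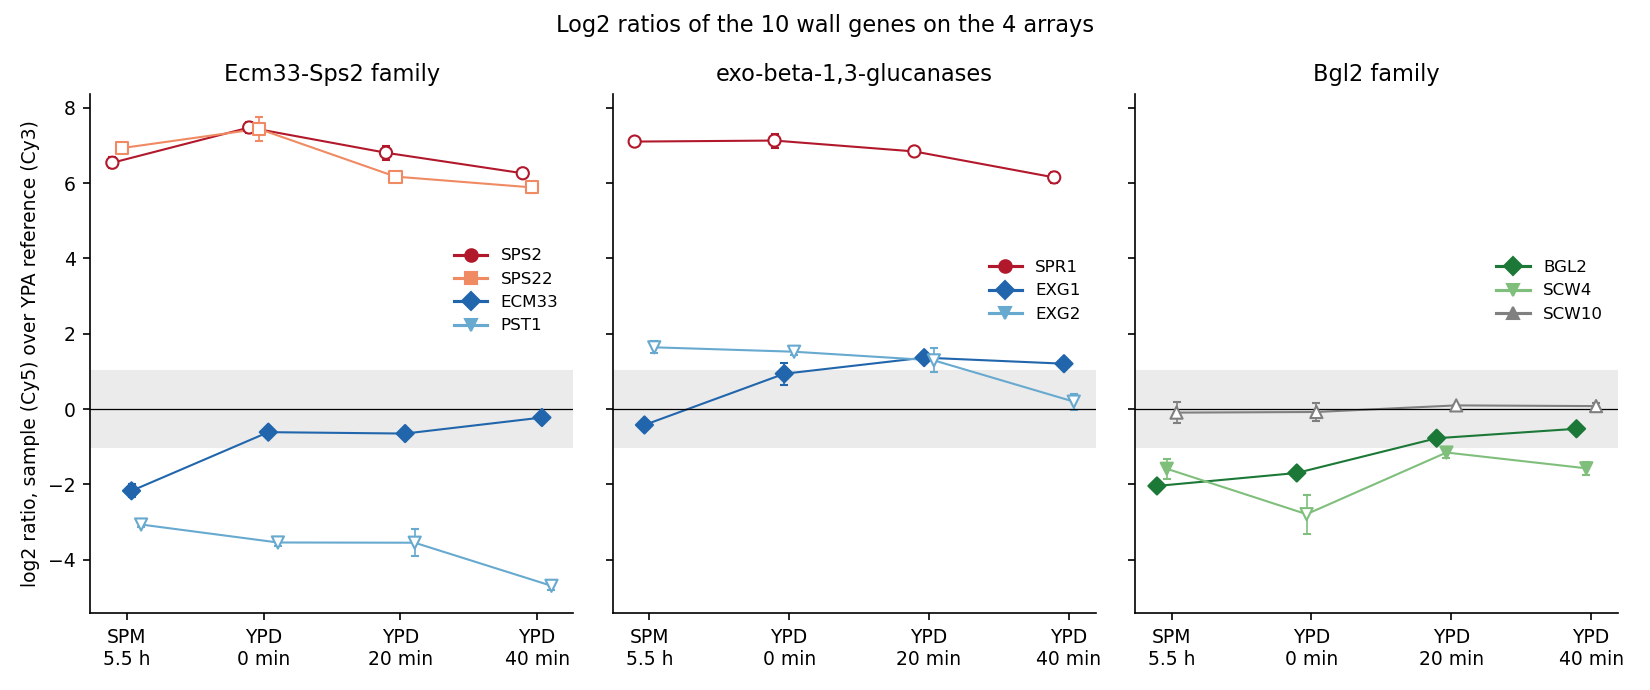
Log2 ratio of sample over the YPA reference for the 10 wall genes on the array of each group, with 1 panel per family. Points are means of 2 spots, bars are the SD of these spots, open points have at least 1 channel below background, and the grey band spans 2-fold in either direction. The 3 sporulation genes lay between 5.89 and 7.48 on all arrays, ECM33 and BGL2 moved toward 0 after the transfer, and PST1, below background in the sample channel throughout, lay at -3.07 or lower.

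SPS2 (YDR522C) had log2 ratios of 6.54 ± 0.14 at 5.5 h in SPM and of 7.48 ± 0.14, 6.81 ± 0.19 and 6.26 ± 0.02 at 0, 20 and 40 min in YPD (SD, n = 2 spots). It was highest at 0 min and lowest at 40 min, and the values at 20 min and at 5.5 h differed by 0.27, less than the SD of 0.33 between the spots of that difference. Its Cy3 spots were below background on all 4 arrays, so only lower bounds on the fold can be given. They were at least 67.2-fold at 5.5 h in SPM and at least 86.9-fold, 61.8-fold and 40.1-fold at 0, 20 and 40 min in YPD. These bounds set the sample channel against the reference channel and are open to dye bias, as no dye swap was made.

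SPS22 (YCL048W) had log2 ratios of 6.93 ± 0.06 at 5.5 h in SPM and of 7.44 ± 0.31, 6.17 ± 0.06 and 5.89 ± 0.14 at 0, 20 and 40 min in YPD. The arrays at 5.5 h and 0 min were the higher pair and those at 20 and 40 min the lower pair, with no overlap of the spots of one pair with those of the other. The bounds over the reference were at least 62.5-fold, 92.5-fold, 40.1-fold and 29.4-fold in the same order. Between 0 and 20 min SPS22 fell by 1.27 ± 0.37 and passed 2-fold in both spots, while SPS2 fell by 0.67 ± 0.33 and did not. In the normalized Cy5 channel the falls between 0 and 20 min were 1.25 for SPS22 and 0.54 for SPS2. The Cy3 signal below background enters that normalization, so these values are not independent of it. Against 5.5 h the Cy5 change at 20 min was 0.02 for SPS2 and -0.50 for SPS22.

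SPR1 (YOR190W) had log2 ratios of 7.11 ± 0.11 at 5.5 h in SPM and of 7.13 ± 0.19, 6.84 ± 0.09 and 6.15 ± 0.16 at 0, 20 and 40 min in YPD. The first 2 arrays did not differ beyond the spread of the spots, and the array at 40 min was the lowest. Its Cy3 spots were below background on every array, and the bounds over the reference were at least 58.1-fold at 5.5 h and at least 33.9-fold at 40 min. The brightest Cy5 spot of any of the 10 genes read between 35093 and 44148 on the 4 arrays, below the brightest spot of the array, which read between 46555 and 65370.

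**Figure D2:**
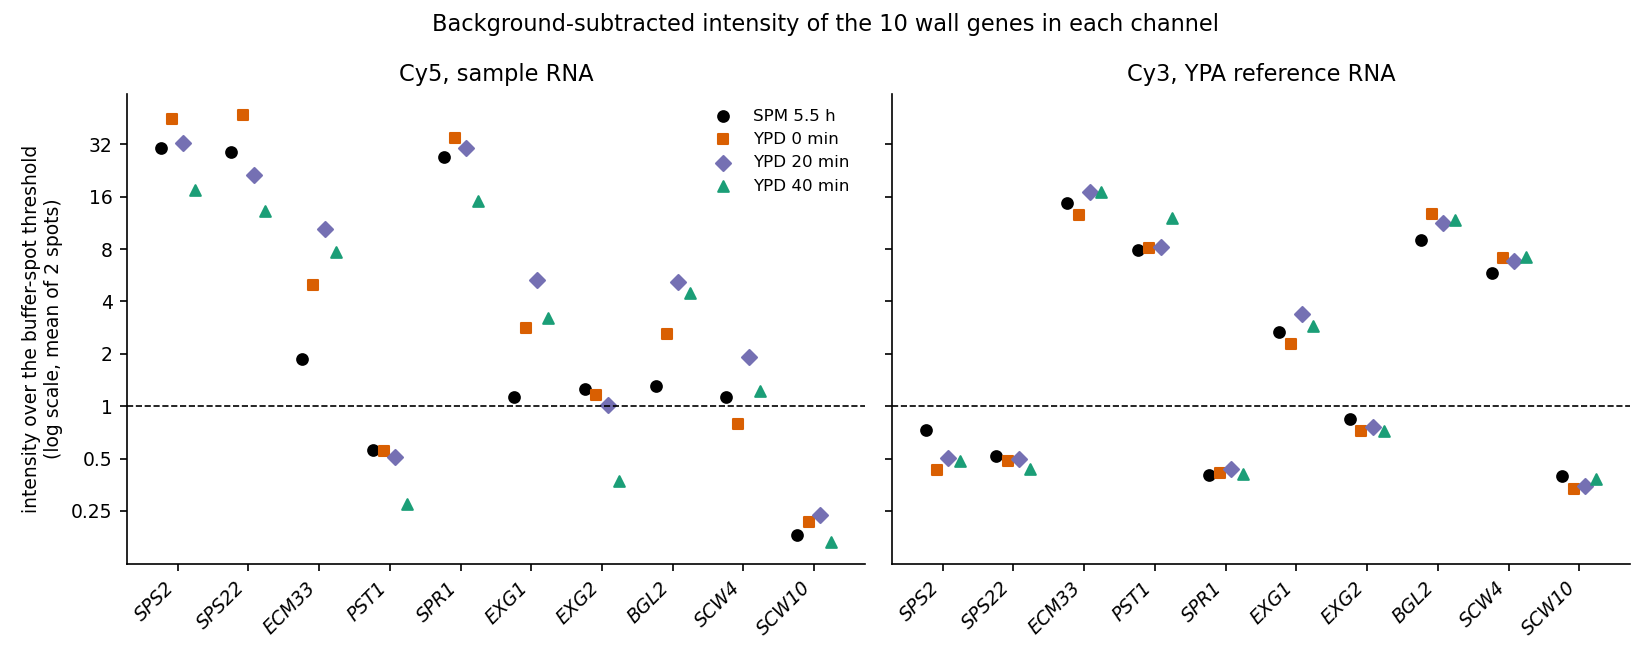
Background-subtracted intensity of the 10 wall genes, mean of 2 spots, divided by the buffer-spot threshold of that channel and array (dashed line, log scale), for the sample RNA on the left and the reference RNA on the right. Heights of different genes depend on their probes and are not compared. In Cy3, SPS2, SPS22, SPR1, EXG2 and SCW10 lay under the line on all 4 arrays and the other 5 above it, while in Cy5 PST1 and SCW10 lay under it throughout.

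ECM33 (YBR078W) was the member that rose most by 40 min in YPD. Its log2 ratio was -2.17 ± 0.18 at 5.5 h in SPM, and -0.61 ± 0.09, -0.65 ± 0.07 and -0.23 ± 0.07 at 0, 20 and 40 min in YPD, with both channels above background on every array. It was therefore 4.51-fold below the YPA reference in sporulating cells and within 2-fold of it on all 3 YPD arrays. Against the array at 5.5 h the ratio rose by 1.56 ± 0.26, 1.52 ± 0.25 and 1.95 ± 0.24, or 2.95-fold, 2.87-fold and 3.86-fold. Most of this difference was present in the sample collected immediately after the transfer. The ratios at 0 and 20 min differed by only 0.04, but Cy5 rose by 0.42 and Cy3, from the same reference RNA, by 0.46. In the log2 ratios as deposited, ECM33 was at -0.72 at 0 min and -0.06 at 20 min, so this level step depended on the processing. In the Cy5 channel alone ECM33 rose against 5.5 h by 1.48, 1.90 and 2.11 at 0, 20 and 40 min.

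PST1 (YDR055W), the other vegetative member of this family, was lower than the reference on all arrays. Its log2 ratios were -3.07 ± 0.08 at 5.5 h in SPM and -3.55 ± 0.08, -3.55 ± 0.35 and -4.70 ± 0.10 at 0, 20 and 40 min in YPD. Its Cy5 spots were below background on all 4 arrays and its Cy3 spots above it, so that PST1 was at least 4.66-fold lower than the reference at 5.5 h and at least 5.93-fold, 5.75-fold and 6.72-fold lower at 0, 20 and 40 min. No fold is given for its change after the transfer, because both sides were below background. The lower ratio at 40 min went with a Cy3 intensity of PST1 that was 0.69 log2 units higher on that array than at 5.5 h, although the reference RNA was the same.

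The relatives within the family differed widely in their ratios to the reference. SPS2 exceeded ECM33 by a measured 8.72 ± 0.23 log2 units at 5.5 h in SPM (the SD combines the spots of both genes), and with SPS2 at its bound by at least 8.24. At 0, 20 and 40 min in YPD the difference was at least 7.06, 6.60 and 5.55. Between 5.5 h and 40 min the Cy5 signal, above background for both genes, rose by 2.11 for ECM33 and changed by -0.64 for SPS2. ECM33 exceeded PST1 by at least 0.04 at 5.5 h and by at least 1.95, 1.87 and 2.52 at 0, 20 and 40 min. SPS2 and SPS22 both lacked a measured reference signal, so no order between their ratios is given. Probe sequences were not used here, and binding of the RNA of one relative to the PCR product of another was not tested.

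EXG1 (YLR300W) was near the reference in sporulating cells and rose in YPD. Its log2 ratio was -0.42 ± 0.09 at 5.5 h in SPM and 0.94 ± 0.29, 1.36 ± 0.10 and 1.20 ± 0.09 at 0, 20 and 40 min in YPD, with both channels above background throughout. The array at 5.5 h was the lowest, and the spots at 20 and 40 min were within 0.3 of each other. At 5.5 h its Cy5 signal was only just above background, at 1.135 times the threshold, and the rises below start from that value. Against 5.5 h the ratio rose by 1.36 ± 0.20, 1.79 ± 0.01 and 1.63 ± 0.18, or 2.57-fold, 3.45-fold and 3.09-fold. With loess run within each print-tip block the rise at 0 min was 0.87, and it no longer passed 2-fold.

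EXG2 (YDR261C) was dim on every array. Its log2 ratio was 1.64 ± 0.16 at 5.5 h in SPM and 1.52 ± 0.10, 1.29 ± 0.32 and 0.20 ± 0.21 at 0, 20 and 40 min in YPD. The first 3 arrays lay within 0.35 of each other, and the last was lower. Cy3 was below background on all 4 arrays and Cy5 was only just above it on the first 3, at 1.25, 1.16 and 1.01 times the threshold. At 20 min its Cy5 spots read 1094 and 972.5 against a threshold of 1021, so only 1 of them passed. The bounds over the reference were at least 2.59-fold, 2.17-fold and 1.88-fold, and at 40 min both channels were below background. Cy5 at 1.01 times the threshold still gave 1.88-fold at 20 min. These bounds thus reflect in part the unequal floors of the channels, and are weak evidence of a ratio above the reference. The measured fall from 5.5 h to 40 min was 1.44 ± 0.06, but as Cy5 at 40 min was below background the bound was only at least 1.15-fold lower.

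At 5.5 h in SPM, EXG2 exceeded EXG1 in its ratio to the reference by at least 1.80 log2 units, with EXG2 at its bound. That bound carries the limit given above for EXG2. At 40 min EXG2 was below background in both channels and no difference is given. SPR1 exceeded EXG1 by a measured 7.53 ± 0.14 at 5.5 h and, with SPR1 at its bound, by at least 6.28 at 5.5 h and 5.12, 4.49 and 3.88 at 0, 20 and 40 min. In the Cy5 channel, where both were above background, EXG1 rose by 1.79 from 5.5 h to 40 min and SPR1 changed by -0.67.

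BGL2 (YGR282C) was lower than the reference before and immediately after the transfer and then rose. Its log2 ratio was -2.04 ± 0.03 at 5.5 h in SPM and -1.70 ± 0.003, -0.78 ± 0.01 and -0.52 ± 0.05 at 0, 20 and 40 min in YPD, with both channels above background on every array. The Cy5 signal at 5.5 h was only 1.30 times the threshold, and the rises below start from that value. The change against 5.5 h was 0.34 ± 0.03, 1.27 ± 0.04 and 1.52 ± 0.02 for the 3 times in turn, of which the last 2 passed 2-fold (2.41-fold and 2.87-fold). At 0 min ECM33 and EXG1 had passed 2-fold and BGL2 had not. Its Cy3 intensity, from the same reference RNA, lay lowest at 5.5 h and was 0.70 log2 units higher at 0 min. In the Cy5 channel alone BGL2 rose by 1.04, 1.74 and 1.88. The level of BGL2 against the reference depended on the processing. Among 10 alternatives its highest log2 ratio was -1.22 on the SPM array. For the YPD arrays in turn the highest values were -0.58, 0.40 and 0.58. The last 2 lay above the reference, while 9 of the 10 alternatives stayed below it there. The last 2 changes against 5.5 h ranged from 1.24 to 1.69 and from 1.51 to 1.80 among the alternatives.

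SCW4 (YGR279C) was below the reference on all 4 arrays, with log2 ratios of -1.59 ± 0.27 at 5.5 h in SPM and -2.79 ± 0.52, -1.16 ± 0.13 and -1.57 ± 0.16 at 0, 20 and 40 min in YPD. The Cy5 signal at 5.5 h was only just above background, at 1.12 times the threshold. At 0 min its Cy5 spots were below background and SCW4 was at least 5.15-fold lower than the reference. The 2 spots of the change from 5.5 h to 0 min read -0.65 and -1.76, and no change against 5.5 h passed 2-fold in both. Between 0 and 20 min it was at least 1.97-fold higher. BGL2 and SCW4 lie close to each other on 1 chromosome, and BGL2 minus SCW4 was -0.46 ± 0.27 at 5.5 h and 1.05 ± 0.17 at 40 min. SCW10 (YMR305C) was below background in both channels on all 4 arrays, with log2 ratios between -0.10 and 0.10, and no fold is given for it.

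**Figure D3:**
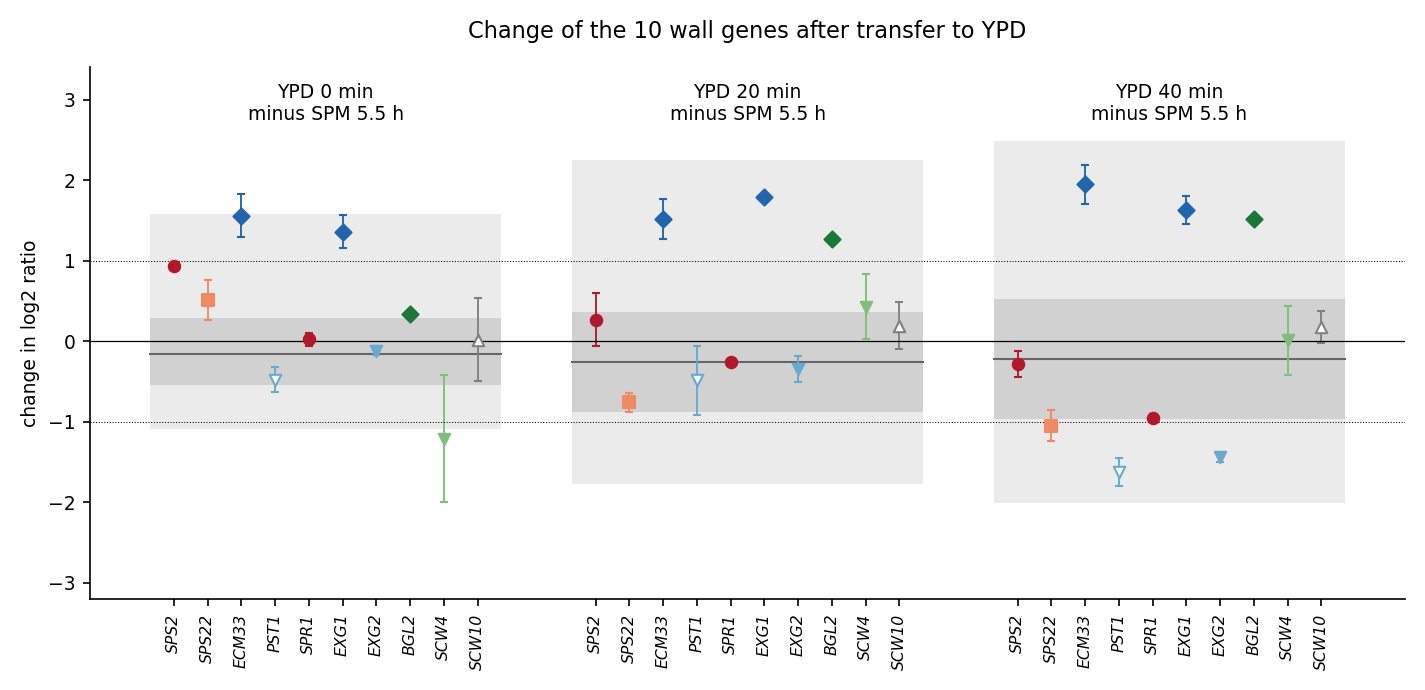
Change in log2 ratio of the 10 wall genes at 0, 20 and 40 min in YPD against 5.5 h in SPM. Points are means of 2 spots, bars are the SD of the spots, open points are genes below background in Cy5 on both arrays, shaded bands span the middle 50 and 90 percent of all genes, the grey line is their median, and dotted lines mark 2-fold. ECM33 and EXG1 lay above the upper dotted line in all 3 comparisons and BGL2 in the last 2, while none of the 3 sporulation genes passed 2-fold in both spots.

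Counted over the 10 genes, 2 rose at least 2-fold at 0 min (ECM33 and EXG1) and 0 fell, where 7.59% of all genes rose and 4.13% fell. At 20 min 3 rose (BGL2 in addition) and 0 fell, against 11.5% and 15.8% of all genes. At 40 min the same 3 rose and 2 fell (PST1 and EXG2), against 13.9% and 19.8%, and neither fall rested on a sample above background at 40 min. These comparisons share the array at 5.5 h, so an error on that array would move all of them together. The median change over all genes was -0.16, -0.26 and -0.22 at 0, 20 and 40 min.

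The 3 sporulation genes did not pass 2-fold in either direction at any time against 5.5 h. At 40 min SPS2 had changed by -0.28 ± 0.16, SPS22 by -1.05 ± 0.20 and SPR1 by -0.95 ± 0.05. SPS22 missed the call with spots at -0.91 and -1.19. In the normalized Cy5 channel the change was -0.64 for SPS2, -0.98 for SPS22 and -0.67 for SPR1. Their Cy3 signal was below background and enters that normalization too, so this is not an independent measure. All 3 remained at least 29.4-fold above the reference at 40 min. The decreases of these 3 genes depended on the processing. In the table of log2 ratios as deposited, the change from 5.5 h to 40 min was 0.04 for SPS2, -0.28 for SPS22 and 0.05 for SPR1.

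The genes whose ratios over the 4 arrays came closest to each member were sought among 2300 genes above background in Cy5 on every array, by the root mean square (RMS) difference in log2 ratio. For SPS2 they were YDR042C (RMS 0.09), YGL230C (0.11) and SPS1 (0.13), a protein kinase gene of middle sporulation. For SPS22 they were LOH1 (0.17), GAS4 (0.27), whose product elongates glucan in the spore wall, and YGR273C (0.31). For SPR1 they were PIR5 (0.14), a gene of the PIR family of wall proteins, SGA1 (0.20), the glucoamylase gene of sporulating cells, and SPR3 (0.20), a septin gene of sporulation. Cy3 was below background for SPS2, SPS22 and SPR1, and also for SPS1, GAS4, PIR5 and SPR3. The RMS values between such genes therefore compare ratios without a measured reference signal.

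ECM33, EXG1 and BGL2 were matched by other kinds of gene. Nearest to ECM33 were CCT6 (0.22), a subunit of the cytosolic chaperonin, EFT1 (0.26), encoding elongation factor 2 and having a near-identical copy whose signal cannot be separated from it, and VMA1 (0.34), a subunit of the vacuolar ATPase. Nearest to EXG1 were PRS3 (0.06), an enzyme of nucleotide precursor synthesis, NOG1 (0.16), a GTPase of ribosome assembly, and GSP1 (0.20), the yeast Ran. Nearest to BGL2 were RCR1 (0.23), TCD1 (0.28) and YDR154C (0.29). With 4 arrays and no replicates, likeness by this measure is a description only.

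In the RefSeq annotation none of the 10 genes overlapped the protein-coding gene next to it on either side. SPS1 lies next to SPS2, and its log2 ratios were 6.73, 7.53, 6.99 and 6.23 in the order of the groups. RPG1 lies next to ECM33, and its ratios were -1.82, -0.79, -0.42 and -0.05, low in SPM and near the reference at 40 min. PXR1, beside SCW4, did otherwise, with ratios of -0.38, 2.99, 2.40 and 1.94. These 3 neighbours were singled out after their values were seen.

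Other genes of the wall were described from 4 lists. Of the sporulation-specific wall genes GAS2, GAS4, CRR1 and PIR5, 4 of 4 were at least 2-fold above the reference at 5.5 h in SPM, with a median log2 ratio of 6.76, and 3 of 4 fell at least 2-fold by 40 min in YPD, where 21.7% of all genes were higher and 19.8% fell. GAS2, encoding a glucan elongase of the spore wall, fell by 1.98 ± 0.57, CRR1, encoding a glycosidase of the spore wall, fell by 1.40 ± 0.40, and GAS4 fell by 1.27 ± 0.36. PIR5 changed by -0.84 ± 0.02. As measured, the changes of GAS2, CRR1 and GAS4 lay below those of SPS2, SPS22 and SPR1, and that of PIR5 between those of SPS2 and SPR1. Cy3 was below background for GAS2, GAS4 and PIR5, as for SPS2, SPS22 and SPR1, so no firm order is drawn from these changes. The median change of the 4 genes was -1.33. The count of falls depended on the processing. It was 2 of 4 in the values as deposited and 4 of 4 with loess within print-tip blocks.

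Of 20 measured genes of glucan and chitin remodelling in vegetative cells, 5 were higher and 8 lower than the reference at 5.5 h in SPM, where the shares of all genes were 21.7% and 18.1%. By 40 min in YPD 3 rose and 3 fell, near the shares of 13.9% and 19.8% of all genes, and the median change was 0.02. GAS3, of the same glucan elongase family as GAS2, rose by 1.20 ± 0.0002, and SIM1, a gene of the SUN family, rose by 1.04 ± 0.03 with a bound of at least 1.40-fold. SUN4, also of the SUN family and known from the separation of mother and daughter cells, had a change of 1.37 ± 0.42 but was below background in Cy5 on both arrays. UTH1, of the SUN family too, fell by 1.84 ± 0.44, KNH1, a relative of the glucan synthesis gene KRE9, fell by 1.53 ± 0.41 and EGT2, a gene of cell separation, fell by 1.39 ± 0.20.

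Of 9 measured structural wall proteins, 2 were higher and 5 lower than the reference at 5.5 h (21.7% and 18.1% of all genes). By 40 min 0 had risen and 6 had fallen (13.9% and 19.8% of all genes), with a median change of -1.41 beside -0.22 for all genes. SED1, a major anchored wall protein, fell by 2.71 ± 0.03 (6.55-fold) and CWP1, a mannoprotein, fell by 1.66 ± 0.05 (3.15-fold). SPI1, a stress-induced wall protein gene, had a change of -2.20 ± 0.49 with Cy5 below background on both arrays. SED1 and CWP1 thus moved the other way from ECM33, EXG1 and BGL2 over the same 40 min.

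Of 15 genes of the cell wall integrity pathway, which senses wall stress through the kinase Slt2, 5 were higher and 4 lower than the reference at 5.5 h (21.7% and 18.1% of all genes), and by 40 min 0 had risen and 3 had fallen, with a median change of -0.56. WSC3, a sensor of wall stress, fell by 2.08 ± 0.39, SWI4, a transcription factor of genes of the mitotic cycle, fell by 1.81 ± 0.33, and RLM1, the transcription factor downstream of Slt2, fell by 1.23 ± 0.16. At 40 min 13.9% of all genes had risen and 19.8% had fallen, so that 3 of 15 falling genes is near the background share.

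**Figure D4:**
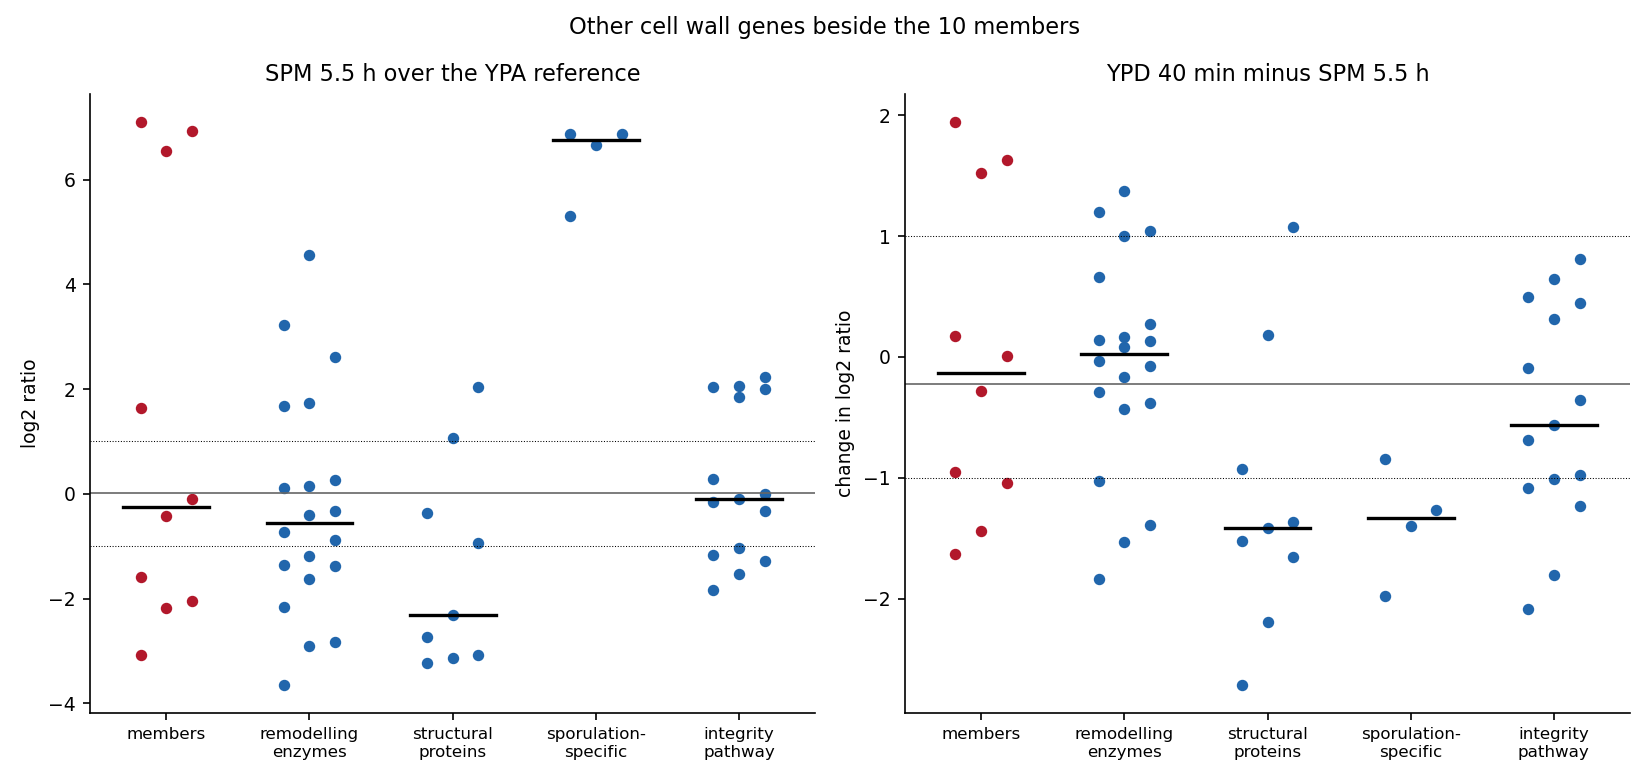
Log2 ratio at 5.5 h in SPM over the YPA reference (left) and change in log2 ratio from 5.5 h in SPM to 40 min in YPD (right) for the 10 members and 4 lists of other wall genes. Each point is 1 gene, black bars are list medians, the grey line is the median of all genes, and dotted lines mark 2-fold. The sporulation-specific genes lay at a median of 6.76 on the left, and the structural proteins at a median of -1.41 on the right.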

How the data were processed

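Each array carried PCR products of 6218 ORFs in 2 adjacent spots. The authors scanned the slides and used QuantArray (version 3) for quantification. Per the file headers, the deposited scanner files hold linear intensity values of spot and surrounding background in each channel, neither subtracted nor normalized. The value table deposited by the authors gives log2 of sample over reference, background-subtracted, with low values raised to the mean of buffer spots and the array median subtracted (median 0 per column). Dye fields, the study's checklist and scanner headers name Cy5 for the sample, whereas the protocol text of the labels reverses the dyes. The same steps repeated on the scanner intensities gave values whose correlation with the table, across 5506 to 5510 matched genes, was r = 0.994 to 0.998. The time of 5.5 h is that of the titles.

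The normexp background correction (offset 50) and a global loess within each array were run in limma 3.58.1 (R 4.3.3), with weight 0 for 236 buffer and 384 Arabidopsis spots. Ratios were then shifted so that the gene spots had a median of 0. On the 0 min array 17 flagged gene spots were left out. The normalization was tested on simulated arrays in which a small share of genes was changed, as many up as down. A far larger share of genes differed from the reference here, so that simulation does not cover the setting of these data. For bounds, normalized channel intensities (loess, then Aquantile) were used. The brighter side was compared with the dimmer one, or with the lowest spot above background where that was higher. Of the 6218 ORFs, 5663 matched RefSeq (assembly R64), used for names and neighbours only. For the array, a genome build is not given in the sources used here.

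Members, lists and alternatives were chosen with earlier results of these data known. Named were all 10 genes, for each gene above background in Cy5 on all arrays its 3 nearest genes, and from each list the 3 largest changes at 40 min in each direction among genes past 2-fold. GAS1, CCW14 and CWP2 were on these lists and were not analysed here. A planned search of promoters for motifs was not run, and no sequences were used here. With 1 array per group no test was made. The number of arrays limits the precision.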

Additional observations from a re-analysis of the deposited data

How the results depend on the processing

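No paired analysis was possible because each group had 1 array, and for the same reason no replicate could be left out. Of the values of single members, 431 stayed within 1 SD of the spots under the alternatives, 204 moved further, and no called member changed sign. Where only genes with signal above background in each channel of every array were counted, 0, 0, 1 and 1 members were higher than the reference and 2, 1, 0 and 0 lower at 5.5 h, 0, 20 and 40 min, and 0 fell by 40 min. This filter removes the 3 sporulation genes by construction, as it needs signal in the reference. Under it 1 remodelling enzyme, 0 structural proteins and 1 integrity gene were lower and 1 sporulation-specific gene was higher at 5.5 h, and by 40 min 1 remodelling enzyme rose and 3 structural proteins and 1 sporulation-specific gene fell. With values below background at their bound, 4 remodelling enzymes were lower at 5.5 h, 1 rose by 40 min and 0 members fell, while SPS2 minus ECM33 was 8.24 and SPR1 minus EXG1 6.28 at 5.5 h. With Arabidopsis spots as background the latter was 7.15. Loess within print-tip blocks gave 1 structural protein higher at 5.5 h, 1 member lower than the reference at 20 min and 1 member rising at 0 min. SPS2 minus ECM33 was then 9.84, SPR1 minus EXG1 7.24 and BGL2 minus SCW4 0.15 at 5.5 h, the last with its sign turned, and the first 2 had changed by -2.71 and -2.17 at 40 min. The cause was not tested. In the values of the authors' table, 1 member fell at 0 min and 1 structural protein rose by 40 min, SPS2 minus ECM33 was 8.36 and SPR1 minus EXG1 6.58 at 5.5 h, and the latter changed by -1.57 at 40 min. The study's steps on the scanner intensities gave 8.36, 6.99 and -2.07. With offset 10 SPR1 minus EXG1 was 7.73 and 1 structural protein rose, as it did when the array median replaced loess. With the second spot only, 1 member fell at 0 min, and by 40 min 1 structural protein and 1 integrity gene rose and 6 integrity genes fell. The signal of PST1 and SCW10 in the sample, and of SPS2, SPS22, SPR1, EXG2 and SCW10 in the reference, was too low for more than a bound.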
